A study of Danio rerio with 8 samples.

Results

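The cyp2k genes are a subfamily of cytochrome P450 genes that lie side by side on zebrafish chromosome 3. They were taken as all 7 genes, of 20409 in the expression table, whose symbol starts with cyp2k: cyp2k18, cyp2k19, cyp2k21, cyp2k17, cyp2k16, cyp2k8 and cyp2k6, in that order along the chromosome in the RefSeq annotation of assembly GRCz12tu. The study sequenced RNA of whole zebrafish larvae at 4 days after fertilization, to ask what paralysis of cilia does to gene expression. The smh mutant larvae are homozygous (-/-) mutants in ccdc103, whose protein anchors dynein motors in motile cilia, and were picked by their downward curled tail. Siblings of the same clutches, wild-type and heterozygous (+/-) larvae mixed, served as controls. No larvae were treated. Each of 4 clutches gave 1 mutant and 1 sibling library of 30 pooled larvae, so that there were 4 mutant and 4 sibling libraries, 8 in all.

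P450 enzymes are membrane-bound haem proteins that insert an oxygen atom into fatty acids, steroids, bile acids, drugs and toxins, with electrons passed to them by P450 oxidoreductase. The CYP2K subfamily belongs to fishes. In rainbow trout a CYP2K enzyme hydroxylates fatty acids and activates the mould toxin aflatoxin, and zebrafish cyp2k6 is also known to act on aflatoxin. In fish, P450 genes of this kind are chiefly genes of the liver, kidney and gut, and no substrate is given here for the other 6 members.

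The 7 genes did not differ between mutants and siblings in the same direction. 5 members (cyp2k18, cyp2k19, cyp2k21, cyp2k16 and cyp2k6) were lower in the mutant than in its sibling in 4 of 4 clutches, while cyp2k8, which lies between cyp2k16 and cyp2k6, was higher in 4 of 4 and cyp2k17 in 3 of 4. Because the genes were proposed with this contrast in view, their differences between mutants and siblings are given as a description. Calls of the members on this contrast are printed further below, and nothing is read from them. Among the 20154 genes tested in the whole table, 10.9% were lower in mutants in 4 of 4 clutches and 11% were higher in 4 of 4, or 21.9% with the same sign in all 4.

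cyp2k8 (gene ID 561462) had 3.00, 3.07, 2.96 and 3.32 log2 CPM (the log2 of its reads relative to the library's total) in the mutants of clutches 1 to 4, against 2.90, 2.51, 2.51 and 2.79 log2 CPM in their siblings. Every mutant library lay above every sibling library. The means were 3.09 ± 0.16 log2 CPM in mutants and 2.68 ± 0.20 log2 CPM in siblings (SD, n = 4 each), a level 1.33-fold higher in mutants. The mutant minus sibling difference was 0.41 log2 units (SE 0.14, 95% interval 0.10 to 0.72, from limma of genotype alone, fitted across all genes). With clutch as a block the interval was 0.18 to 0.64. Within clutches 1 to 4 the difference was 0.10, 0.56, 0.44 and 0.54 log2 units, so clutch 1 showed the smallest difference.

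cyp2k16 (gene ID 449790), the next gene, had 4.56, 4.34, 4.40 and 4.20 log2 CPM in the mutants of clutches 1 to 4, against 4.76, 4.62, 4.60 and 4.77 log2 CPM in their siblings. Here every mutant library lay below every sibling library. The mean was 4.37 ± 0.15 log2 CPM in mutants and 4.69 ± 0.09 log2 CPM in siblings (SD, n = 4 each), and the level was 1.24-fold lower in mutants. The difference was -0.31 log2 units (SE 0.11, 95% interval -0.55 to -0.08, and -0.48 to -0.15 with clutch as a block). Within the clutches it was -0.21, -0.27, -0.20 and -0.58 log2 units. Mutants and siblings did not overlap in 2 of the 6 members that passed the filter on low values, cyp2k8 and cyp2k16, and the same was true of 2.92% of all tested genes (1.05% with mutants lower and 1.87% with mutants higher).

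**Figure D1:**
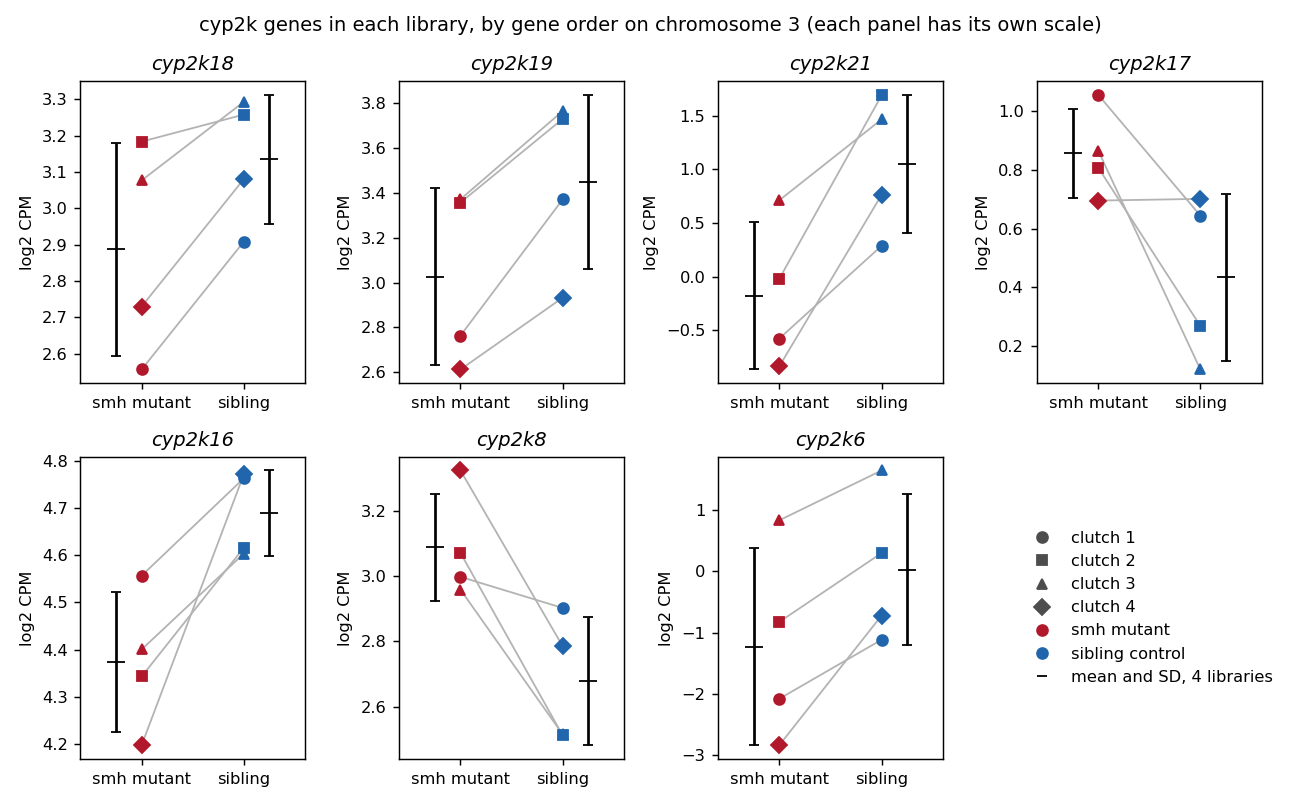
Expression of the 7 cyp2k genes in log2 CPM (vertical axes, each with its own scale) in smh mutant and sibling libraries (horizontal axes), with a grey line joining the libraries of a clutch and the mean and SD of 4 libraries beside each group. The mutant and sibling points of cyp2k16 and cyp2k8 do not overlap, with the mutants below the siblings for cyp2k16 and above them for cyp2k8, while the other 5 genes overlap.

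Set against each other in the same library, cyp2k8 stood higher relative to cyp2k16 in mutants than in siblings. The cyp2k8 minus cyp2k16 difference in level was -1.56, -1.27, -1.44 and -0.87 log2 units in the mutants of clutches 1 to 4, against -1.86, -2.11, -2.09 and -1.99 log2 units in their siblings. It averaged -1.29 ± 0.30 log2 units in mutants and -2.01 ± 0.11 in siblings (SD, n = 4 each), a shift of 0.72 log2 units. Each gene alone separated mutants from siblings, in opposite directions, so the groups could not overlap in this difference and nothing is added by that. The shift was 0.30, 0.83, 0.65 and 1.11 log2 units within clutches 1 to 4. In all, 7 pairs were examined, each of a gene higher in mutants with one lower in mutants. The groups also did not overlap for cyp2k17 minus cyp2k16, at -3.52 ± 0.019 log2 units in mutants and -4.26 ± 0.19 in siblings (SD, n = 4 each). By the estimate given below, cyp2k17 rested on about 27 to 36 reads a library in mutants. Its small SD there is not read as a fixed ratio. No share over pairs of other genes was computed. In the other 5 pairs, among them cyp2k8 with cyp2k18, cyp2k19, cyp2k21 and cyp2k6, mutants and siblings overlapped. Within clutches, however, each of these 5 pairs shifted upward in mutants in 4 of 4, with mean shifts of 0.66 to 1.67 log2 units. Since each pair sets a gene higher in mutants against one lower, that direction adds nothing. The pair described in full was chosen after the values were seen. No transcript lengths were used, so the level of one gene is not read as higher than that of another.

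cyp2k17 (gene ID 735313) had 1.06, 0.81, 0.87 and 0.70 log2 CPM in the mutants of clutches 1 to 4, against 0.64, 0.27, 0.12 and 0.70 log2 CPM in their siblings. It was higher in the mutants of clutches 1, 2 and 3, and in clutch 4 the mutant and its sibling differed by -0.01 log2 units. The mean was 0.86 ± 0.15 log2 CPM in mutants and 0.43 ± 0.28 log2 CPM in siblings (SD, n = 4 each). The difference was 0.42 log2 units (SE 0.21, 95% interval -0.03 to 0.88, and -0.04 to 0.88 with clutch as a block). On the log2(CPM + 1) scale the difference of cyp2k17 was 0.25.

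cyp2k21 (gene ID 564107), on the other side of cyp2k17, had -0.58, -0.02, 0.71 and -0.84 log2 CPM in the mutants of clutches 1 to 4, against 0.29, 1.69, 1.46 and 0.76 log2 CPM in their siblings. Its level was 2.35-fold lower in mutants, at a mean of -0.18 ± 0.68 log2 CPM in mutants and 1.05 ± 0.64 log2 CPM in siblings (SD, n = 4 each). The difference was -1.23 log2 units (SE 0.39, 95% interval -2.08 to -0.38, and -1.75 to -0.71 with clutch as a block). It came to -0.86, -1.71, -0.75 and -1.60 log2 units within clutches 1 to 4. The groups overlapped through the mutant of clutch 3, which lay above the sibling of clutch 1. On the log2(CPM + 1) scale, which gives less weight to low values, the difference of cyp2k21 was -0.70.

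cyp2k19 (gene ID 562304) had 2.76, 3.36, 3.37 and 2.61 log2 CPM in the mutants of clutches 1 to 4, against 3.37, 3.73, 3.77 and 2.93 log2 CPM in their siblings. The mutants of clutches 1 and 4 and the sibling of clutch 4 were the lowest libraries, and the groups overlapped although each mutant was below its own sibling. The difference was -0.42 log2 units (SE 0.23, 95% interval -0.92 to 0.08, and -0.62 to -0.22 with clutch as a block).

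cyp2k18 (gene ID 393484), the first gene of the cluster, had 2.56, 3.18, 3.08 and 2.73 log2 CPM in the mutants of clutches 1 to 4, against 2.91, 3.26, 3.29 and 3.08 log2 CPM in their siblings. The difference was the smallest of the 7 in size, at -0.25 log2 units (SE 0.16, 95% interval -0.60 to 0.11, and -0.46 to -0.04 with clutch as a block), and within the clutches it ran from -0.35 to -0.07.

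cyp2k6 (gene ID 393481), the last gene, had -2.08, -0.83, 0.84 and -2.84 log2 CPM in the mutants of clutches 1 to 4, against -1.12, 0.30, 1.65 and -0.72 log2 CPM in their siblings. It reached 0 log2 CPM in 3 of 8 libraries and so did not pass the filter of 4. Each mutant was below its sibling, with differences of -0.97, -1.13, -0.82 and -2.12 log2 units in clutches 1 to 4, but the clutches themselves lay further apart than that. Without the filter the difference was -1.26 log2 units (SE 0.82, 95% interval -3.09 to 0.58), and with clutch as a block the SE was 0.34 and the interval -1.98 to -0.53.

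**Figure D2:**
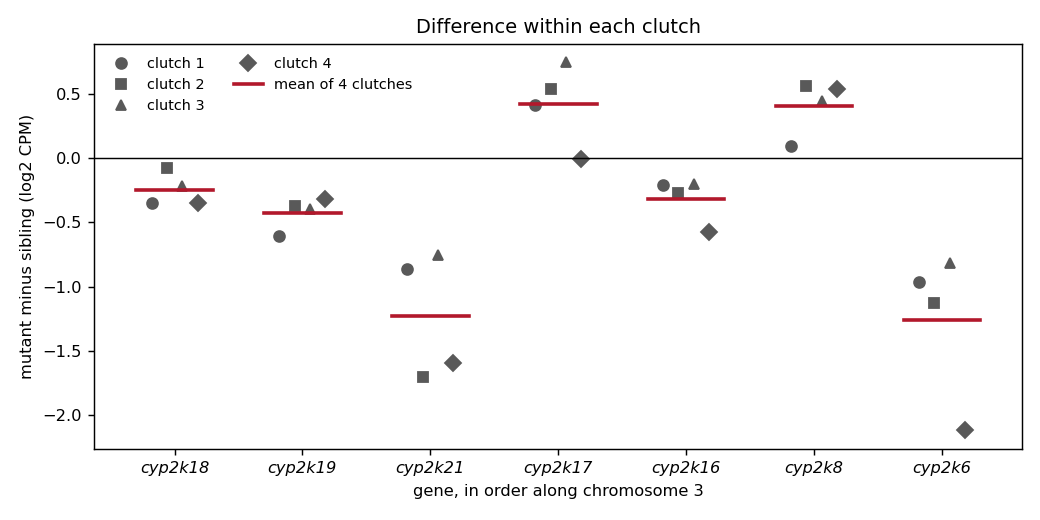
Mutant minus sibling difference in log2 CPM (vertical axis) of each cyp2k gene (horizontal axis, in order along chromosome 3), with a symbol for each of 4 clutches and a bar at their mean. 5 genes have 4 symbols below 0, cyp2k8 has 4 above 0, and cyp2k17 has 3 above 0 and clutch 4 at -0.01.

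In the fit of genotype alone, 0 of the 6 members that passed the filter were called at a limma adjusted p under 0.05, against 0.0744% of all tested genes (15 of 20154). With clutch as a block, 3 of 6 members were called, cyp2k19, cyp2k21 and cyp2k16, all lower in mutants, against 2.34% of all genes (472 of 20154). Nothing is read from these counts, since the same contrast was used to propose the genes. In addition, cyp2k21 reached 0 log2 CPM in 5 libraries, all those of siblings and the mutant of clutch 3. It thus met the filter through the siblings, where it is high, and nothing is read from its call. The blocked calls also moved with the settings: 0 of 6 members were called without a mean-variance trend and robust estimation, 0 without clutch 2, 0 without clutch 4, 1 (cyp2k21) without clutch 3, and 3 (cyp2k21, cyp2k16 and cyp2k8) without clutch 1. The within-clutch standard errors were 0.08 log2 units for cyp2k16, 0.10 for cyp2k19 and cyp2k18, 0.11 for cyp2k8, 0.22 for cyp2k17 and 0.25 for cyp2k21. In the authors' deposited table of this comparison, the log2 fold changes of the members were within 0.00301 of those above and the smallest adjusted p of a member was 0.531.

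The 7 genes together came to 47.2, 51.3, 52.9 and 43.4 CPM in the mutants of clutches 1 to 4, against 55.8, 58.7, 60.4 and 54.2 CPM in their siblings. This summed level averaged 48.7 ± 4.28 CPM in mutants and 57.3 ± 2.81 CPM in siblings (SD, n = 4 each). cyp2k8 made up between 14.7% and 23.1% of the sum in mutants and between 9.46% and 13.4% in siblings, and cyp2k16 between 39.5% and 49.9% in mutants and between 40.2% and 50.4% in siblings.

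How well the authors' counting separated these near neighbours could be read in part from the values. Within a library, genes with the same whole number of reads have exactly the same value, and between 88.5% and 89.1% of gene values from 0 to 5 log2 CPM were shared with at least 5 other genes. cyp2k16 and cyp2k8 sat on such shared values in 8 of 8 libraries, with 9 to 19 other genes on the value of cyp2k16 and 31 to 40 on that of cyp2k8. cyp2k6 did so in 6 of 8 libraries. cyp2k18, cyp2k19 and cyp2k21 did so in 0 of 8, and cyp2k17 in 1 of 8. Values off the shared levels are what an estimated, fractional read count gives, as when reads are divided among similar transcripts, so the levels of these 4 genes are uncertain. cyp2k20 and cyp2k22, further members of the subfamily in RefSeq, were not analysed here.

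The same shared levels lay a median of 0.0578 to 0.0626 CPM apart between 1 and 3 CPM, which, taken as the worth of 1 read, puts 1 CPM at about 16.0 to 17.3 reads. On that reading cyp2k16 rested on about 300 to 407 reads a library in mutants and 393 to 443 in siblings, and cyp2k8 on about 131 to 164 in mutants and 91 to 120 in siblings. cyp2k17 rested on about 27 to 36 reads in mutants and 18 to 26 in siblings, and cyp2k21 on about 9 to 28 in mutants and 19 to 52 in siblings. cyp2k6 had between about 2 and 30 reads in mutants and between 7 and 52 in siblings, so a difference of a few reads moved its log2 value far.

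Clutches differed in the level of some members and not detectably of others, a property that was not used to choose the genes. In the F test of the 3 clutch terms (limma, with genotype in the model), cyp2k19 varied between clutches (adjusted p = 0.000468), with means over both genotypes of 3.07, 3.54, 3.57 and 2.77 log2 CPM in clutches 1 to 4. cyp2k21 also varied (limma adjusted p = 0.0176), at -0.14, 0.83, 1.09 and -0.04 log2 CPM, and so did cyp2k18 (limma adjusted p = 0.0282), at 2.73, 3.22, 3.18 and 2.91 log2 CPM. In these 3 genes clutches 2 and 3 were high and clutches 1 and 4 low.

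cyp2k16 ranged over 0.18 log2 CPM between clutch means (limma adjusted p = 0.427), cyp2k8 over 0.32 (limma adjusted p = 0.281) and cyp2k17 over 0.36 (limma adjusted p = 0.715), and none of them passed. Clutch called 3 of the 6 tested members and 38.6% of all genes. cyp2k6, tested without the filter on low values, had clutch means of -1.60, -0.26, 1.24 and -1.78 log2 CPM (limma adjusted p = 0.000513). The clutch call of cyp2k19 held in all the alternatives run, with limma adjusted p up to 0.0248. That of cyp2k18 was lost without the sibling of clutch 1, the mutant of clutch 1, 2 or 3, the whole of clutch 1 or clutch 2, or trend and robust estimation (limma adjusted p up to 0.251). That of cyp2k21 was lost without the sibling of clutch 1 or 2, the mutant of clutch 3, the whole of clutch 1 or clutch 3, or trend and robust estimation (limma adjusted p up to 0.0782).

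Over the 8 libraries the members fell into those that moved together and those that did not. Pearson's r, given as a description over 8 libraries that share clutches and genotypes, was between 0.83 and 0.89 for every pair among cyp2k18, cyp2k19, cyp2k21 and cyp2k6. cyp2k8 and cyp2k17 had r = 0.75 with each other. cyp2k8 had r between -0.93 and -0.68 with the other 5 members, and cyp2k16 had r between 0.20 and 0.53 with cyp2k18, cyp2k19, cyp2k21 and cyp2k6. The levels of cyp2k18, cyp2k19, cyp2k21 and cyp2k17 are uncertain, as they mostly lay off the shared read levels. What the division of reads among similar transcripts adds to these r values was not tested.

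Correlations were also taken with markers of tissues that a whole larva contains. All these correlations hold the difference between mutants and siblings by which the genes were proposed. They also hold differences between clutches, for which 38.6% of all tested genes were called. They are therefore a description and support nothing. The mean log2 level of 14 intestine markers and that of 15 exocrine pancreas markers had r = 0.98 and 0.96 with cyp2k18, 0.86 and 0.87 with cyp2k19, 0.90 and 0.89 with cyp2k21, and 0.90 and 0.94 with cyp2k6. For cyp2k16 these were 0.19 and 0.21, for cyp2k8 -0.72 and -0.72, and for cyp2k17 -0.68 and -0.70. Against 19 liver markers r ran from -0.16 to 0.54 over the 7 genes. cyp2k16 had r = -0.76 with the pronephros list and 0.66 with the skeletal muscle list, and cyp2k17 had 0.63 with the erythroid list.

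**Figure D3:**
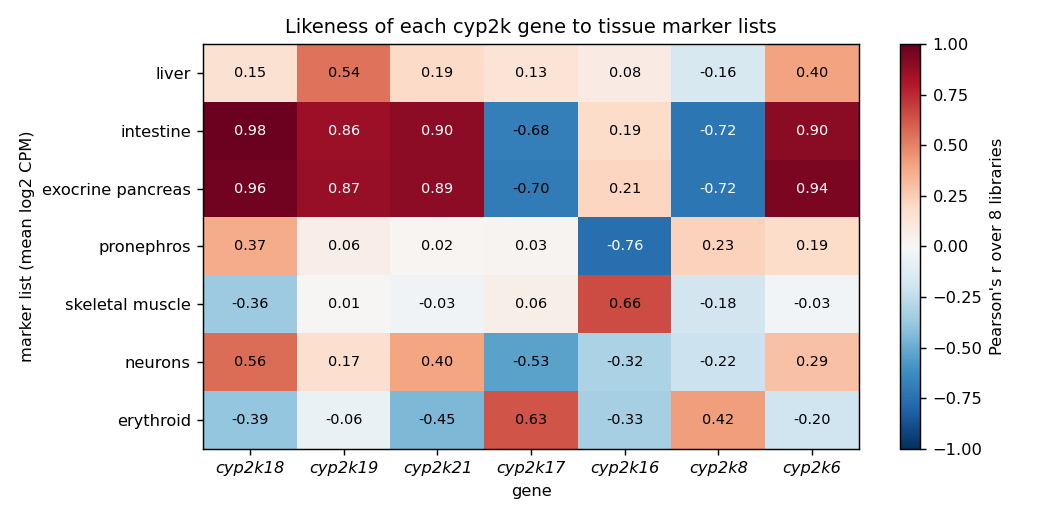
Pearson's r over 8 libraries (colour and printed value) between each cyp2k gene (columns) and the mean log2 CPM of 7 lists of tissue markers (rows). cyp2k18, cyp2k19, cyp2k21 and cyp2k6 have r between 0.86 and 0.98 with the intestine and exocrine pancreas lists, cyp2k16 has 0.19 and 0.21, and cyp2k17 and cyp2k8 have values from -0.72 to -0.68.

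Both digestive lists themselves differed between mutants and siblings within clutches. With clutch as a block, 14 of 15 exocrine pancreas genes and 7 of 14 intestine genes fell, against 1.39% of all tested genes, and 0 of either list was called without the block (limma; 0 and 2 at an unadjusted p under 0.05). Their summed levels ran from 2247 to 5302 CPM in mutants and from 3459 to 6687 CPM in siblings for exocrine pancreas, and from 5581 to 6715 CPM in mutants and from 5308 to 6610 CPM in siblings for intestine. The summed intestine level was higher in the mutant in clutch 1 (6715 CPM, against 6610 in its sibling) and clutch 3 (5776 against 5308), and lower in clutches 2 and 4. The mean log2 level of the pancreas list fell by 0.76, 0.37, 0.37 and 0.79 log2 units in mutants of clutches 1 to 4, and that of the intestine list fell by 0.38, 0.27, 0.20 and 0.51. In whole larvae, fewer cells of a type and less RNA per cell cannot be told apart, and the part of these tissues in the cyp2k differences was not tested. These lists and those below were chosen with earlier results of these data known, so their counts of calls are a description.

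Of 19 liver markers 1 rose and 0 fell with the block, with summed levels from 13680 to 15110 CPM in mutants and from 12120 to 14650 CPM in siblings. Of 16 pronephros markers, genes of the larval kidney, 4 rose and 1 fell with the block, and the sums ran from 315 to 482 CPM in mutants and from 266 to 416 CPM in siblings. Of 9 erythroid markers 4 rose, of 12 skeletal muscle markers 1 fell, and of 10 neuron markers 0 were called (limma with the block, 0 at an unadjusted p under 0.05). Over all tested genes 0.948% rose and 1.39% fell with the block. In none of the 7 lists was a marker below 0 log2 CPM in every library.

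The genes most like each member over the 8 libraries, out of 20069 searched, were found by Pearson's r and are given as a description. Those of cyp2k18 included the pancreatic carboxypeptidase gene cpa5 (r = 0.991) and the pancreatic protease gene prss59.2 (r = 0.991). Both are also in the exocrine pancreas list above, so they are not a separate observation. Those of cyp2k19 were crhb (r = 0.987), a corticotropin-releasing hormone gene, cndp2 (r = 0.973), a dipeptidase gene, and chpt1 (r = 0.970), of choline phospholipid synthesis. Those of cyp2k21 were bbox1 (r = 0.978), of carnitine synthesis, the mitochondrial carrier gene ucp1 (r = 0.976) and the peptide transporter gene slc15a2 (r = 0.973).

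For cyp2k8 the 3 were si:zfos-464b6.2 (r = 0.985), kctd5a (r = 0.971) and smarcd3b (r = 0.966), the last a chromatin remodelling subunit. For cyp2k16 they were the translation repressor gene eif4ebp3l (r = 0.949), tmem41ab (r = 0.940) and ttyh3a (r = 0.939), and for cyp2k17 rbm24b (r = 0.960), an RNA-binding protein gene, rnf223 (r = 0.957) and ube2e2 (r = 0.951). For cyp2k6 they were si:dkey-14d8.7 (r = 0.989), LOC103908636 (r = 0.985) and si:ch211-214p16.3 (r = 0.985). After the clutch means were subtracted, each member had 3 genes at r of 0.996 or more, since 4 differences are then all that is compared, and those genes are not listed.

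Other P450 genes gave 0 rises and 6 falls among 56 tested with clutch as a block, against 0.948% of all tested genes that rose and 1.39% that fell. Their median difference was -0.09 log2 units, against 0.00 over all tested genes, and 42 of 56 lay below 0. Without the block 0 were called (limma, 1 at an unadjusted p under 0.05). In the blocked fit, leaving out clutch 1 gave 2 calls and leaving out clutch 4 gave 3, and the fit without trend and robust estimation gave 0.

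The 6 that fell were spread over 5 families. cyp7a1, which catalyses the first and rate-limiting step from cholesterol to bile acids, had 3.62, 4.91, 5.15 and 4.43 log2 CPM in mutants of clutches 1 to 4, against 4.40, 5.43, 5.58 and 4.84 log2 CPM in siblings. Each mutant was below its sibling, by 0.41 to 0.78 log2 units (blocked limma adjusted p = 0.000532, 0.100 without trend and robust estimation). Of 4 tested cyp3 genes 2 fell, cyp3a65, a P450 of steroids and foreign compounds in liver and gut, by 0.62 log2 units and cyp3c3 by 0.63 (blocked limma adjusted p = 0.0134 and 0.0167). Both lost the call without clutch 1 (adjusted p = 0.0979 and 0.136).

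Of 23 tested cyp2 genes outside cyp2k, 0 rose and 1 fell, cyp2x9, by 0.37 log2 units (blocked limma adjusted p = 0.0288), which lost the call without clutch 1, 3 or 4. Of 5 tested cyp1 genes 1 fell, cyp1a, which the aryl hydrocarbon receptor switches on, by 0.36 log2 units (blocked limma adjusted p = 0.0484). It was lower in 3 of 4 mutants and lost the call without clutch 1, 2 or 4. cyp27c1, of retinoid metabolism, fell by 0.40 log2 units (blocked limma adjusted p = 0.0481) and also lost the call without clutch 1, 2 or 4. Of 3 tested cyp4 genes 0 were called. cyp7a1, cyp3a65, cyp2x9, cyp27c1 and cyp1a lie on other chromosomes than the cluster, while cyp3c3 lies on chromosome 3.

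Among 25 tested receptors and transcription factors that act on P450 genes, 2 rose and 0 fell with the block, and 1 rose without it. Over all tested genes 0.948% rose and 1.39% fell with the block, and 0.0744% were called without it. hnf1bb, a transcription factor of kidney tubule, liver and gut, had 3.95, 4.14, 4.19 and 4.19 log2 CPM in mutants of clutches 1 to 4, against 2.87, 3.04, 2.98 and 2.85 log2 CPM in siblings. All mutant libraries lay above all sibling libraries, by 1.19 log2 units on average (limma adjusted p = 0.00146). That call was lost in the unblocked fit without clutch 2, 3 or 4. In the blocked fit hnf1bb was also called (limma adjusted p = 7.8e-07). The blocked call held without any single clutch and without trend and robust estimation (limma adjusted p up to 0.0128). Its paralog hnf1ba was higher by 0.33 log2 units in 4 of 4 clutches (limma adjusted p = 0.0262 in the blocked fit and 0.853 for genotype alone), and lost the blocked call without clutch 2, 3 or 4. Both genes are also in the pronephros list. Of 11 tested electron donors of P450s 0 were called in either fit (limma, with 4 below an unadjusted p of 0.05 in the blocked fit and 0 in the other). The P450 oxidoreductase genes porb and pora differed by -0.21 (SE 0.14) and 0.17 (SE 0.14) log2 units. With the block the SE of each was 0.07.

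The cluster shares chromosome 3 with ccdc103, the mutated gene, with 442 tested genes between them in the RefSeq order of GRCz12tu. ccdc103 itself differed by -0.13 log2 units between mutants and siblings (SE 0.23, limma adjusted p = 1.000), so its transcript level did not separate the genotypes. Of the tested genes on chromosome 3 outside cyp2k, 5.48% (55 of 1004) were called with the block, against 2.17% on the other chromosomes (400 of 18412), and chromosome 3 had the highest share of 25 chromosomes. Because mutants were chosen by a phenotype linked to this chromosome, a difference of haplotype along it and an effect of ccdc103 cannot be told apart in these libraries.

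The genes examined around the cluster were too few to tell their share of calls from 2.34% of all tested genes or 5.48% of chromosome 3. Of the 20 tested genes before the cluster 1 fell with the block. Of the 20 after it 0 were called (limma, 4 at an unadjusted p under 0.05 with the block). Of the 20 before ccdc103 4 were called and of the 20 after it 2. In consecutive blocks of 50 tested genes, the block beside the cluster held 1 called gene and the next 2, while the block with ccdc103 held 6 and the next 1, and no difference between these places was tested. The gene that fell was cfap70, which encodes a protein of motile cilia, at 2.35, 2.63, 2.40 and 2.31 log2 CPM in the mutants of clutches 1 to 4, against 2.92, 3.29, 3.07 and 2.79 log2 CPM in siblings. Every mutant library lay below every sibling library, by 0.59 log2 units on average (limma adjusted p = 0.00521 in the blocked fit and 0.418 for genotype alone). The tested genes directly beside the cluster did not pass. One was the lipid transporter gene abca3b, with a difference of -0.18 log2 units (SE 0.15, and 0.06 with the block). The other was the potassium channel gene kcnj2b, with -0.52 (SE 0.25, and 0.23 with the block). Each was lower in 4 of 4 mutants.

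Between the cluster and ccdc103, 11 genes rose and 10 fell with the block among 442 (4.75%). The 4 also called without the block were LOC100534815, zgc:113090, the bile acid synthesis gene hsd3b7 and zgc:198419. The first 3 had differences of -2.87, -5.24 and -0.76 log2 units, and zgc:198419 was higher by 0.85 to 1.37 log2 units within clutches. Of the others called with the block, zgc:92066 and nfil3-6 had the smallest p, with differences of -0.70 and -0.62 log2 units. zgc:113090 was near the lowest value of the table in mutants, at -5.02 to -3.14 log2 CPM, so the size of its difference depends on that lowest value. All 6 had the same direction in 4 of 4 clutches and passed with the block. But LOC100534815, at -2.08 to -1.17 log2 CPM in mutants, and zgc:113090 reached 0 log2 CPM in sibling libraries only. Both genes thus entered the fit only through the group where they are high, and nothing is read from their calls. zgc:92066 (limma adjusted p = 0.181) and nfil3-6 (limma adjusted p = 1.000) did not pass without it.

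**Figure D4:**
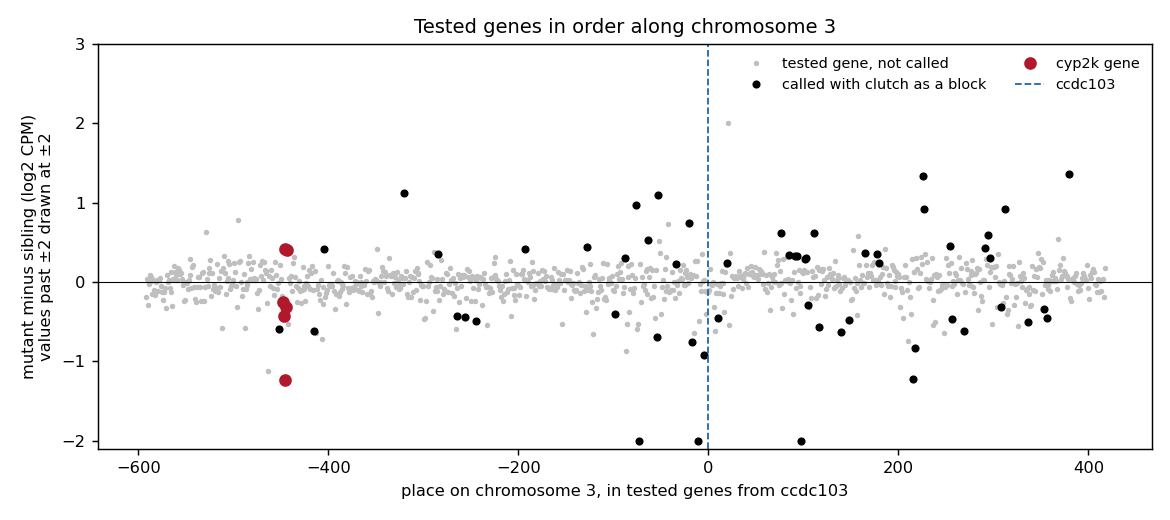
Mutant minus sibling difference in log2 CPM (vertical axis, values past ±2 drawn at ±2) of the tested genes of chromosome 3, placed by their order and counted in tested genes from ccdc103 (horizontal axis). The 6 tested cyp2k genes stand together before ccdc103, with 442 tested genes between, and have both positive and negative differences.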

How the data were processed

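The authors deposited normalized values per gene and library, taken here to be log2 CPM and already equalized in distribution between libraries, an inference from the numbers. Per the labels' protocols, reads were filtered with SOAPnuke 1.5.2; per the submitters' processing notes, GRCz11, HISAT2 2.0.4, Bowtie2, RSEM and limma were used, in roles not stated. The authors' deposited comparison holds log2 fold changes, p-values, adjusted p-values and, per the file headers, the score columns t and B of limma, which were not used. The deposited mean level in it is not the mean of these 8 libraries, so its fit may have held more samples.

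Genes reaching 0 log2 CPM in at least 4 of 8 libraries (20154) were fitted with limma 3.58.1 in R 4.3.3 (genotype, or genotype and clutch, with trend and robust estimation), two-sided, and called where the Benjamini-Hochberg adjusted p was under 0.05. Clutch numbers pair libraries, as the labels state. Deviations of clutch mates from their group means correlated by 0.687, 0.483, 0.464 and 0.292 over all genes.

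Order along chromosomes was taken from the RefSeq annotation of GRCz12tu (19636 IDs matched), and no coordinates are printed because the authors used another build. No sequences are shown. The members and lists were chosen with earlier results of these data known. Named genes were all members, called genes of each set (up to 6, or the 2 most abundant), the genes beside the cluster, and the 3 most like each member, of which 1 is not reported here. Alternatives were the clutch block, other filters, log2(CPM + 1), median centring, no trend and no robust estimation, and leaving out each library or clutch.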

Additional observations from a re-analysis of the deposited data

Results flagged for a closer look

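Each named gene was examined in mutants and in siblings, without the genes named only as most like a member. Among 54 such groups of 4 libraries, 3 held a library far from the other 3, about as many as chance gives at 1 in 20 groups. None concerned a cyp2k gene. zgc:113090 was at -3.14 log2 CPM in the mutant of clutch 3, against -5.02 to -4.96 in the other mutants. LOC100534815 was at 1.208 log2 CPM in the sibling of clutch 1, against 1.085 to 1.102 in the other siblings, and hsd3b7 was at 4.65 there, against 4.54 to 4.55.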

How the results depend on the processing

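The 6 cyp2k genes that passed the filter kept the direction of their difference in each alternative that gave a value. The clutch block, the filters and the trend and robust settings leave each difference unchanged, so they could not test its direction. On the log2(CPM + 1) scale the differences were 0.25 for cyp2k17 and -0.70 for cyp2k21, and from -0.38 to 0.36 for the other 4. Leaving out single libraries or clutches gave 0.33 to 0.51 log2 units for cyp2k8, -0.38 to -0.23 for cyp2k16, 0.32 to 0.57 for cyp2k17, -1.53 to -1.01 for cyp2k21, -0.60 to -0.29 for cyp2k19 and -0.35 to -0.14 for cyp2k18. cyp2k6 was fitted only without the filter and was not followed, and cyp2k6, cyp2k17 and cyp2k21 gave no value under the filter on a mean of 5 CPM. Counts of calls depended on the settings, and the cause was not tested. Genes called between genotypes numbered 15, 472 with the clutch block, 7 with the filter on 5 CPM, 7 to 21 without single libraries and 0 to 25 without single clutches. Further alternatives with the block were chosen after the data were seen. They gave 463 calls without the filter, 50 without trend and robust estimation, and 419, 235, 447 and 178 without clutches 1 to 4. Genes called between clutches numbered 7788, 2638 without trend and robust estimation, 4584 to 7231 without single libraries and 1980 to 7717 without single clutches. Other P450 genes gave 0 calls, 6 with the block, 4 with the block and no filter, and 2, 6, 5 and 3 with the block without clutches 1 to 4. The receptor and electron donor lists gave 1 call, 2 with the block with or without the filter, 0 to 1 without single clutches, and 1 to 2 with the block without them. The 40 neighbours of the cluster gave 0 calls, 1 with the block, also without the filter or without trend and robust estimation, and 1 to 2 with the block without single clutches. The levels of cyp2k6, cyp2k17 and cyp2k21 are limited by few reads.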
